A study of Mus musculus with 6 samples.

Results

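The genes described are the 10 SUMO proteases and related deSUMOylating enzymes of the mouse. They were taken by symbol from a table of 53023 genes, and all 10 were found once each. The table holds RNA levels of two-cell embryos at 28 h post insemination (hpi) in 3 groups of 2 libraries each (non-injection, PIASy-Mut and PIASy-WT), and each library was made from 5 embryos of the ICR strain. PIASy, encoded by Pias4, is a ligase that attaches SUMO to other proteins, and the injected groups received mRNA for tagged PIASy-WT or for the ligase mutant PIASy-Mut, changed by C335F within its RING finger, at 100 ng/µl between 1.5 and 3 hpi. Injected embryos were kept if they fluoresced at 9 hpi, whereas the non-injection embryos received no mRNA. The groups therefore measure an excess of PIASy from injected mRNA in whole embryos, and the 2 libraries of a group are separate pools that no label ties to separate days or litters, so their spread may be technical.

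SUMO is a small protein that is joined to lysines of other proteins and removed again by cysteine proteases. SENP1 and SENP2 mature SUMO precursors and remove SUMO in the nucleus and at the nuclear pore. SENP3 and SENP5 are nucleolar and act in ribosome assembly, and SENP6 and SENP7 shorten chains of SUMO. SENP8 belongs to the same family but removes NEDD8, a related modifier of cullins. USPL1 is a SUMO protease of Cajal bodies, the nuclear bodies that mature small nuclear RNAs, and DESI1 and DESI2 form a family of their own. The 10 genes were read as 4 classes, which are nucleolar (Senp3 and Senp5), nuclear (Senp1 and Senp2), chain-editing (Senp6 and Senp7) and other (Senp8, Uspl1, Desi1 and Desi2).

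The SENP genes share a catalytic cysteine, and the coding sequence around it, shown for 6 of them, lets the genes be compared. The lines give 33 bases of the coding strand, 5′ to 3′, with the cysteine codon in capitals. They were read from GENCODE M21 transcripts on mm10, which has the coordinates used by the table.
Senp5: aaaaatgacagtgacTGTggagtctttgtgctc
Senp1: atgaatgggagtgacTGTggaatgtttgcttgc
Senp2: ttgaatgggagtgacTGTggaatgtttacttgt
Senp6: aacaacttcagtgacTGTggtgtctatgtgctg
Senp7: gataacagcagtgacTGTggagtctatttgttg
Senp8: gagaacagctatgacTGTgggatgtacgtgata
Of these 33 bases, 30 were identical between Senp1 and Senp2 and 26 between Senp6 and Senp7. Among the other pairs the number ranged from 16 to 26, and 26 was reached by Senp5 with Senp6. The codons lie at chr16:31964288-31964290 in exon 9 of Senp5, chr15:98045366-98045368 in exon 18 of Senp1 and chr16:22044243-22044245 in exon 16 of Senp2. Those of the other genes shown lie at chr9:80142354-80142356 in exon 23 of Senp6, chr16:56186168-56186170 in exon 23 of Senp7 and chr9:59737344-59737346 in exon 3 of Senp8. Senp5, Senp1 and Senp8 are on the minus strand and Senp2, Senp6 and Senp7 on the plus strand.

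The libraries held 871663 to 1363928 fragments on genes, and the 10 genes together took 1198 to 2052 fragments per library. FPKM values, which are fragments scaled to gene length and library size, were for Pias4 2.98 and 3.59 without injection, 862 and 611 with PIASy-Mut and 610 and 579 with PIASy-WT, so both injected groups carried the injected sequence. All 9 two-cell embryo markers in the table had more than 3 fragments in each library. Their summed FPKM was 881 and 640 with PIASy-WT and 1912 to 2470 in the other 4 libraries. Both PIASy-WT libraries lay below all others for 4 of the 9, which were Obox6 (51.6 and 42.7 against 513 to 1002), Obox3 (10.6 and 6.82 against 115 to 178), Tcstv3 (277 and 193 against 464 to 706) and Zfp352 (194 and 144 against 291 to 326), and overlapped with them for the other 5, Zscan4d among these. The summed FPKM of 10 oocyte-derived markers was 6813 to 9294, with all 10 above 0 in every library. Of these, PIASy-WT lay above all others for Bmp15 (1283 and 1478 against 328 to 745) and Oog1 (128 and 143 against 47.8 to 86.1) and below them for Zp3 (25.1 and 22.4 against 70.9 to 80.6) and Dppa3 (3681 and 2516 against 4137 to 6001). Markers of cumulus and granulosa cells summed to 7.79 and 7.40 with PIASy-WT and 9.93 to 11.9 in the other libraries, and Amhr2 lay below all others (1.13 and 1.74 against 4.58 to 8.06). Of these 10 markers, 5 to 7 were at 0, and Amh, Foxl2 and Inha were at 0 in all 6 libraries. The part of the levels of all these markers in the PIASy-WT differences described here was not tested. PIASy-Mut replicate 2 was the shallowest library and lay below the other PIASy-Mut library for 6 of the 10 genes, so the values of the proteases against PIASy-Mut, and the calls in the lists of related genes, are also given without it.

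The levels of the proteases in PIASy-WT lay on both sides of those in the other groups. Uspl1 fell 5.06-fold in mean FPKM against non-injection and 4.94-fold against PIASy-Mut and was the only one of the 10 to pass the test in either comparison. Senp3, Senp5, Senp2 and Senp7 also lay below all 4 other libraries in both PIASy-WT libraries, while Senp6, Senp8 and Desi2 lay above them and Senp1 and Desi1 overlapped with them. The test was limma on log2(FPKM + 1) over 16100 genes, those that reached an FPKM of 1 in 2 or more libraries, among them all 10 proteases, and a gene counted as called when its adjusted P was 0.05 or lower. Against non-injection, 1 of the 10 genes was called lower, where 5.76% of all genes tested were, and 0 were called higher, where 1.03% were. Against PIASy-Mut, 1 was called lower, where 6.01% of all genes tested were, and 0 higher, where 0.82% were. The share of proteases called was thus near that of all genes.

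At an unadjusted P under 0.05, 5 of the 10 genes passed against non-injection, where 28.2% of all genes did, and 5 against PIASy-Mut, where 27.7% did. These were Senp3, Senp5, Senp2, Uspl1 and Desi2 in both comparisons, which share the PIASy-WT libraries. Both PIASy-WT libraries lay below all 4 others for 5 of the 10 genes, against 24.4% of the genes tested, and above all 4 others for 3, against 19.9%. Against non-injection the median log2 fold change of the 10 genes was -0.59, and against PIASy-Mut -0.70, where the medians of all genes were 0.01 and -0.03. Levels are shares of each library, so a fall of 1 gene cannot be told from a rise of the other RNA. Each library pools 5 embryos, so less RNA per embryo and fewer embryos with the RNA cannot be told apart.

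**Figure D1:**
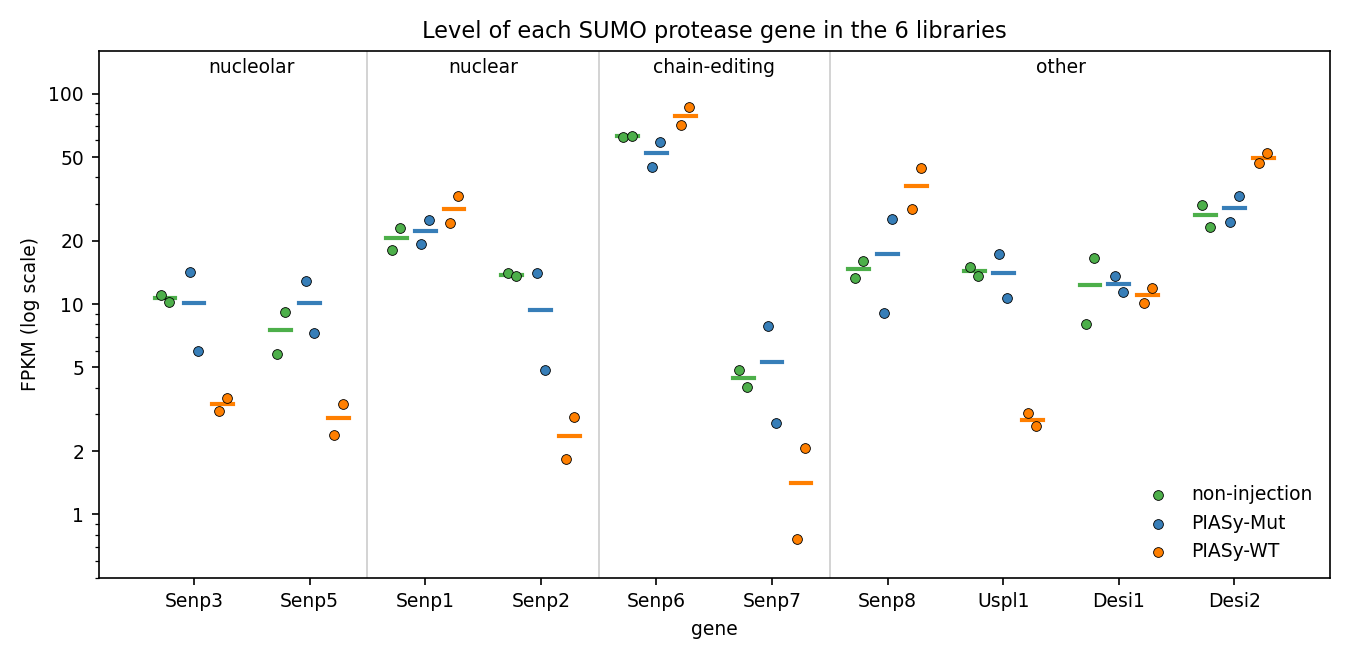
FPKM of each gene (log axis) in the 2 libraries (points) of each group, with the group mean as a bar, and the 4 classes marked above. The PIASy-WT points lie below all others for Senp3, Senp5, Senp2, Senp7 and Uspl1 and above all others for Senp6, Senp8 and Desi2.

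**Figure D2:**
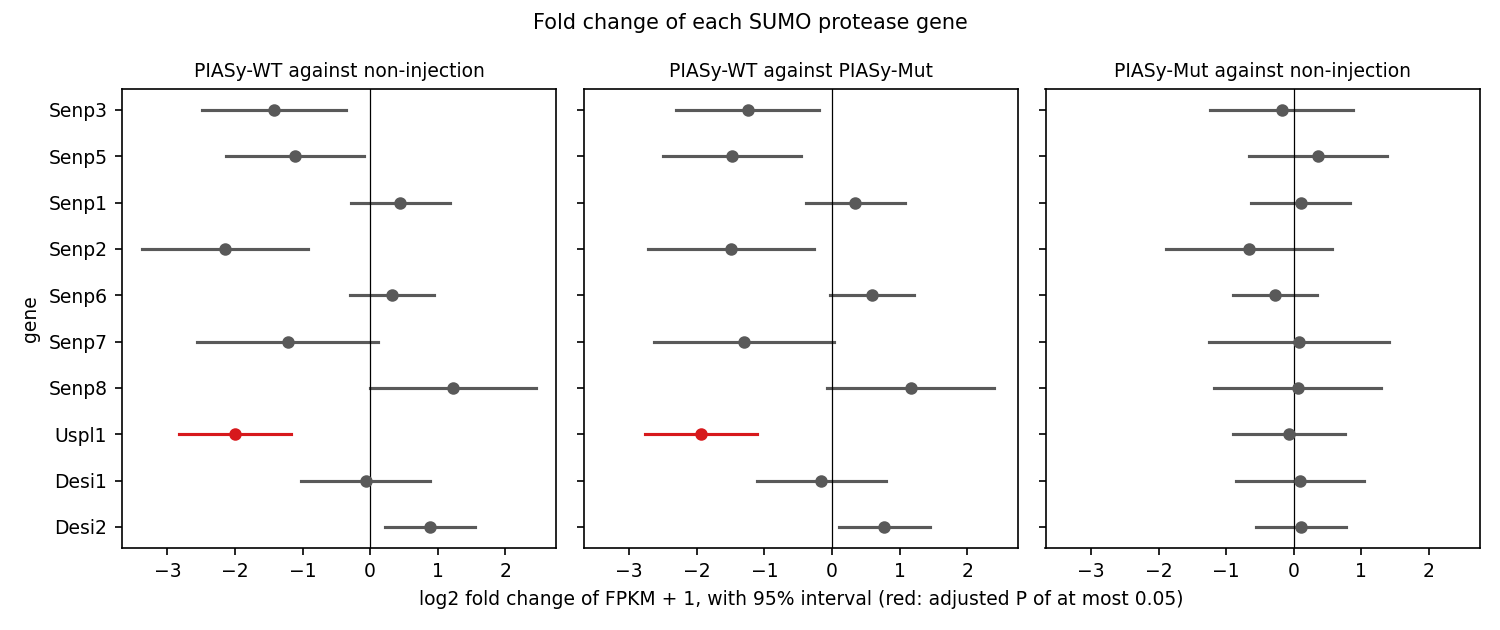
Log2 fold change of FPKM + 1 for each gene (point) with its 95% interval from limma (line) in the 3 comparisons; red marks an adjusted P of at most 0.05. Uspl1 is red in both comparisons of PIASy-WT, at -2.00 and -1.93, and no gene is red in PIASy-Mut against non-injection.

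The first question was how the nucleolar proteases stood. Senp3 (chr11:69673115-69682084), which removes SUMO from nucleophosmin and other ribosome assembly factors, had FPKM values of 11.1 and 10.2 without injection, 14.14 and 6.001 with PIASy-Mut and 3.12 and 3.59 with PIASy-WT. The PIASy-WT libraries were the lowest, PIASy-Mut replicate 2 came next, and the PIASy-Mut pair differed 2.36-fold between themselves. The log2 fold change of PIASy-WT was -1.42 (SE 0.44, 95% interval -2.48 to -0.36, limma adjusted P = 0.0999) against non-injection and -1.24 (SE 0.44, interval -2.30 to -0.18, adjusted P = 0.130) against PIASy-Mut. Neither passed the test. Of the 50-base sequences of Senp3, 9.09% also occur in other genes, mainly Gm6580 and Gm15236, the highest share among the 10 genes.

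Senp5 (chr16:31962506-32003287), the other nucleolar enzyme, had FPKM values of 5.80 and 9.19 without injection, 12.9 and 7.26 with PIASy-Mut and 2.39 and 3.34 with PIASy-WT. Again both PIASy-WT libraries were the lowest, and the non-injection and PIASy-Mut libraries overlapped. Against non-injection its log2 fold change was -1.12 (SE 0.42, adjusted P = 0.149), and against PIASy-Mut -1.48 (SE 0.42, adjusted P = 0.0859), and neither passed. These values rest on 14 to 59 fragments for Senp5 and 15 to 55 for Senp3 per library. The 2 genes together made 7.17% to 15.2% of the summed FPKM of the 10 genes in the 4 libraries of the other groups and 2.87% in each of the PIASy-WT libraries. Their sum was 16.9 and 19.4 FPKM without injection, 27.1 and 13.3 with PIASy-Mut and 5.50 and 6.93 with PIASy-WT. The ratio of Senp3 to Senp5 was 0.827 to 1.91 in the 4 libraries of the other groups and 1.31 and 1.08 in PIASy-WT, which lies within that range.

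The nuclear enzymes, whose catalytic windows were the most alike of those shown, had fold changes of opposite sign. Senp2 (chr16:22009484-22049269), which is found at the nuclear pore, had FPKM values of 14.01 and 13.56 without injection, 13.997 and 4.84 with PIASy-Mut and 1.84 and 2.90 with PIASy-WT. The PIASy-WT libraries were the lowest, and PIASy-Mut replicate 2 stood between them and the other 3 libraries. Relative to non-injection, mean FPKM in PIASy-WT was 5.81-fold lower, with a log2 fold change of -2.15 (SE 0.50, interval -3.38 to -0.92, adjusted P = 0.0588), the largest in size of the 10 genes. Against PIASy-Mut the log2 fold change was -1.49 (SE 0.50, adjusted P = 0.122). Neither passed the test, and the PIASy-WT values rest on 11 and 15 fragments.

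Senp1 (chr15:98038744-98093744), which matures SUMO precursors, had FPKM values of 18.03 and 23.09 without injection, 19.26 and 25.03 with PIASy-Mut and 24.3 and 32.6 with PIASy-WT. A non-coding gene on the opposite strand, Gm26513, shares 3.89% of the length of Senp1 and had 0 to 10 fragments per library. The groups overlapped, since PIASy-WT replicate 1 lay below PIASy-Mut replicate 2. The log2 fold change was 0.44 (interval -0.29 to 1.18, adjusted P = 0.378) against non-injection and 0.34 (interval -0.39 to 1.08, adjusted P = 0.498) against PIASy-Mut. Against non-injection it became 0.27 without non-injection replicate 1, 0.24 without PIASy-WT replicate 2 and 0.73 with quantile normalization. Against PIASy-Mut it became 0.16 and 0.52 without PIASy-Mut replicates 1 and 2, 0.55 and 0.14 without PIASy-WT replicates 1 and 2, and 0.70 with quantile normalization. The ratio of Senp1 to Senp2 was 1.29 and 1.70 without injection, 1.38 and 5.17 with PIASy-Mut and 13.2 and 11.2 with PIASy-WT. The ratio was highest in the PIASy-WT libraries, while the sum of both genes overlapped between groups at 32.0 and 36.7 FPKM without injection, 33.3 and 29.9 with PIASy-Mut and 26.1 and 35.5 with PIASy-WT. With 2 libraries against 2, an exact two-sided permutation test of such a ratio cannot give a P below 0.333, so the ratios are given as values.

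**Figure D3:**
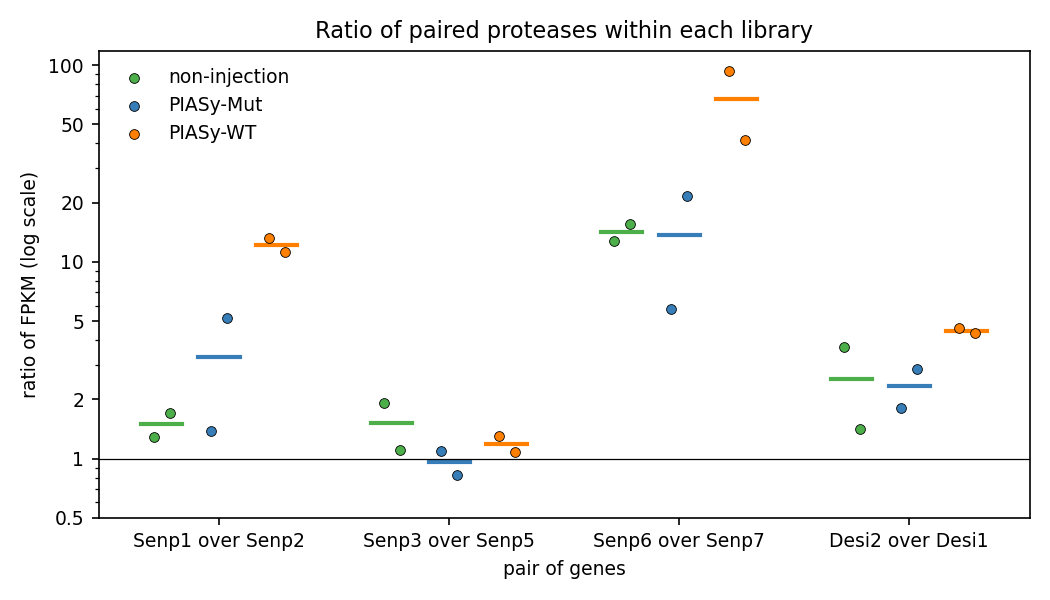
Ratio of the FPKM of paired genes (log axis) in each library (points), with the group mean as a bar and a line at 1. The 2 PIASy-WT libraries have the highest ratios for Senp1 over Senp2 (13.2 and 11.2), Senp6 over Senp7 (93.5 and 41.6) and Desi2 over Desi1 (4.59 and 4.35), and not for Senp3 over Senp5.

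The chain-editing enzymes stood at both ends of the family. Senp6 (chr9:80066903-80144953), which trims SUMO chains at centromeres, had the highest FPKM of the 10 genes in each group, at 62.4 and 62.9 without injection, 45.0 and 59.0 with PIASy-Mut and 71.3 and 86.2 with PIASy-WT. The PIASy-WT libraries were the highest and the PIASy-Mut libraries the lowest. The log2 fold change of PIASy-WT was 0.32 (interval -0.30 to 0.94, adjusted P = 0.451) against non-injection and 0.60 (interval -0.02 to 1.21, adjusted P = 0.194) against PIASy-Mut, and neither passed. The first became 0.18 without PIASy-WT replicate 2, and quantile normalization gave 0.60 and 0.92.

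Senp7 (chr16:56048338-56190012), which acts on chains at heterochromatin, had the lowest mean FPKM in each group, at 4.87 and 4.02 without injection, 7.83 and 2.73 with PIASy-Mut and 0.76 and 2.07 with PIASy-WT. The PIASy-WT libraries were the lowest, although the spread within PIASy-Mut (2.87-fold) and within PIASy-WT (2.72-fold) was wide. For Senp7 the log2 fold change was -1.22 (SE 0.55, adjusted P = 0.206) against non-injection and -1.30 (SE 0.55, adjusted P = 0.188) against PIASy-Mut, and with a pseudocount of 5 in place of 1 these became -0.56 and -0.64. The ratio of Senp6 to Senp7 was 12.8 and 15.6 without injection, 5.75 and 21.6 with PIASy-Mut and 93.5 and 41.6 with PIASy-WT. Because Senp6 is much the more abundant, the class sum followed it, at 67.3 and 66.9 FPKM without injection, 52.8 and 61.8 with PIASy-Mut and 72.1 and 88.3 with PIASy-WT.

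Uspl1 (chr5:149184350-149215434), the Cajal body enzyme, had FPKM values of 14.97 and 13.65 without injection, 17.3 and 10.6 with PIASy-Mut and 3.02 and 2.63 with PIASy-WT. The libraries of the first 2 groups overlapped, and both PIASy-WT libraries lay well below them with 41 and 31 fragments against 95 to 209. The log2 fold change was -2.00 (SE 0.34, interval -2.83 to -1.17, limma adjusted P = 0.0332) against non-injection and -1.93 (SE 0.34, interval -2.77 to -1.10, adjusted P = 0.0342) against PIASy-Mut. With a pseudocount of 5 the values were -1.30 and -1.26. Of all genes tested, 5.97% had a lower log2 fold change against non-injection and 6.89% a lower one against PIASy-Mut. Its size stayed between -1.93 and -2.07 against non-injection when each library was left out, but the call was lost without non-injection replicate 1 (adjusted P = 0.175) or 2 (0.198) and without PIASy-WT replicate 1 (0.118) or 2 (0.178). Against PIASy-Mut the call held only without PIASy-Mut replicate 2 (adjusted P = 0.0161) and was lost without any of the other 5 libraries (adjusted P = 0.0822 to 0.171).

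Uspl1 shares 42 bases of exon, 0.410% of its length, with Hmgb1 on the opposite strand, which had 118 to 338 fragments per library. Whether counting used the strand is not given in the sources used here. The overlap is the only exonic one of Uspl1 in the table.

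Senp8 (chr9:59734259-59750710), which removes NEDD8, had FPKM values of 13.3 and 16.1 without injection, 9.04 and 25.5 with PIASy-Mut and 28.4 and 44.5 with PIASy-WT. The PIASy-WT libraries were the highest, but PIASy-Mut replicate 2 came close to the lower of them, and the PIASy-Mut pair differed 2.82-fold. Mean FPKM was 2.48-fold that of non-injection and 2.11-fold that of PIASy-Mut, with log2 fold changes of 1.23 (SE 0.51, adjusted P = 0.179) and 1.17 (SE 0.51, adjusted P = 0.200). Neither passed the test.

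Desi2 (chr1:178187417-178257301), named as a deSUMOylating isopeptidase, had FPKM values of 29.6 and 23.3 without injection, 24.7 and 32.6 with PIASy-Mut and 46.7 and 52.1 with PIASy-WT. Both PIASy-WT libraries were the highest, and no other library passed 32.6. The log2 fold change was 0.88 (SE 0.27, interval 0.22 to 1.55, adjusted P = 0.103) against non-injection and 0.78 (SE 0.27, interval 0.11 to 1.45, adjusted P = 0.132) against PIASy-Mut, and neither passed. Desi1 (chr15:81992523-82033862), its relative, had FPKM values of 8.07 and 16.5 without injection, 13.6 and 11.4 with PIASy-Mut and 10.2 and 12.0 with PIASy-WT. The groups overlapped for Desi1, and its log2 fold change was -0.07 (interval -1.02 to 0.88, adjusted P = 0.936) and -0.16 (interval -1.11 to 0.79, adjusted P = 0.831), with both signs turning under quantile normalization. Desi1 shares 344 bases of exon, 9.46% of its length, with Xrcc6 on the opposite strand, which had 10 to 26 fragments per library.

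Summed over each class, the nucleolar enzymes were at their lowest in the PIASy-WT libraries, and the chain-editing and other classes at their highest. The mean log2 of the class sum per library in PIASy-WT minus that in non-injection was -1.55 (error 0.19) for the nucleolar, -0.17 (0.24) for the nuclear, 0.25 (0.15) for the chain-editing and 0.55 (0.17) for the other class, where the error is the SD between libraries of these log2 sums, pooled over both groups. Minus PIASy-Mut it was -1.62 (0.54), -0.05 (0.23), 0.48 (0.18) and 0.46 (0.23). The nuclear class took the opposite sign under quantile normalization, at 0.12 and 0.32, and against PIASy-Mut also under median-of-ratios scaling, at 0.07. The other class, at 0.46 against PIASy-Mut, became 0.30 without PIASy-WT replicate 2 and 0.31 without PIASy-Mut replicate 1. The class of the other enzymes summed to 66.0 and 69.5 FPKM without injection, 64.6 and 80.0 with PIASy-Mut and 88.3 and 111 with PIASy-WT, although it also holds Uspl1. The sum over all 10 genes was 178 to 193 in the 4 libraries of the other groups and 192 and 242 in PIASy-WT, so that these ranges met.

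**Figure D4:**
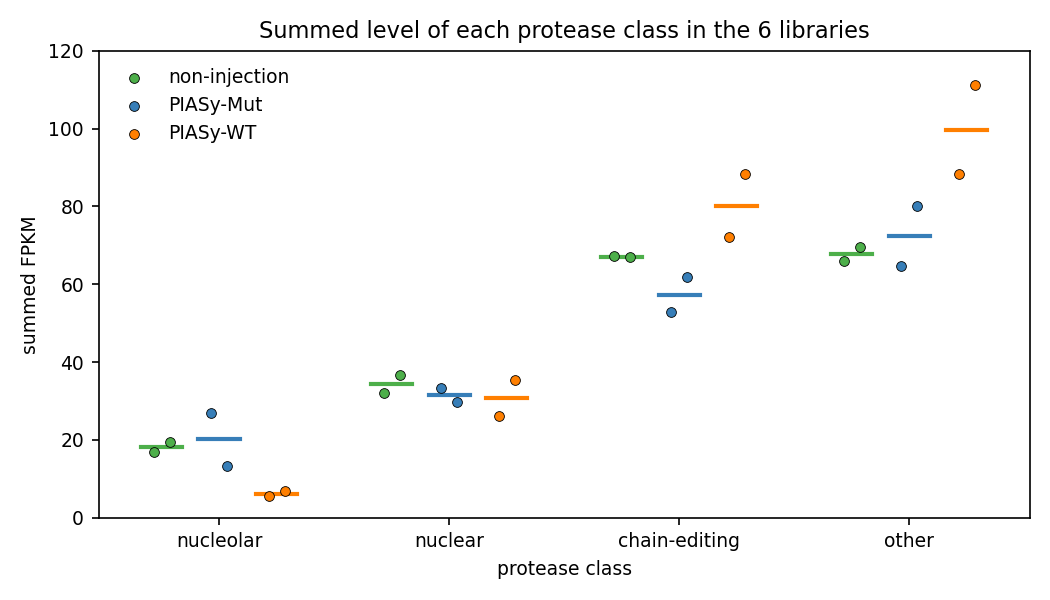
Summed FPKM of the 4 protease classes in each library (points), with the group mean as a bar. The nucleolar sums of PIASy-WT (5.50 and 6.93) lie below all others, the chain-editing (72.1 and 88.3) and other (88.3 and 111) sums above all others, and the nuclear sums overlap.

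The injected mutant was compared with non-injection to show what injection of the ligase mutant did. No protease was called, where 0% of all genes tested were called lower and 0.00621% higher, the latter being Pias4 alone. At an unadjusted P under 0.05, 0 of the 10 genes passed by limma, where 4.46% of all genes did, and voom on recovered fragments also called 0. Log2 fold changes ran from -0.66 for Senp2 (interval -1.89 to 0.57) to 0.37 for Senp5 (interval -0.66 to 1.39), and each adjusted P was 1. These intervals are wide, so differences of this size between PIASy-Mut and non-injection were not detectable.

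PIASy-Mut replicate 2 bore on the comparison of PIASy-WT with PIASy-Mut. Without it, 5 of the 10 genes were called, with log2 fold changes of -1.80 for Senp3 (adjusted P = 0.0246), -1.86 for Senp5 (0.0436), -2.17 for Senp2 (0.0221), -2.26 for Uspl1 (0.0161) and 1.86 for Senp8 (0.0315). In that fit 3051 of 15360 genes (19.9%) were called, and the lone PIASy-Mut library was assumed to vary like the other groups. The genes not called had log2 fold changes of -1.92 for Senp7 (adjusted P = 0.0582), 0.97 for Desi2 (0.0620), 0.79 for Senp6 (0.0693), 0.52 for Senp1 (0.280) and -0.28 for Desi1 (0.687). Without PIASy-Mut replicate 1, 0 of the 10 genes and 0 of all genes were called against PIASy-Mut. The fold changes of all 10 genes were then smaller in size, at -0.69 for Senp3 (adjusted P = 0.315), -1.11 for Senp5 (0.244), -0.81 for Senp2 (0.299), -0.68 for Senp7 (0.520), -1.61 for Uspl1 (0.0948) and 0.47 for Senp8 (0.525). The nucleolar class, at -1.62 with both libraries, was at -2.13 without PIASy-Mut replicate 2 and -1.10 without replicate 1. With either PIASy-Mut library left out, Senp3, Senp2 and Uspl1 were called against non-injection, in fits that called 2760 of 15316 (18%, without replicate 1) and 2730 of 15360 genes (17.8%, without replicate 2), where the fit to all 6 libraries called 1094 of 16100 (6.8%). When 1 library of the other 2 groups was left out in turn, 0 of the 10 genes were called in either comparison, and 0 or 1 of all genes were.

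Between genes, levels spanned a 14.1-fold range in non-injection, 9.85-fold in PIASy-Mut and 55.5-fold in PIASy-WT, from Senp7 to Senp6. In non-injection the order by mean FPKM was Senp6 (62.6), Desi2 (26.5), Senp1 (20.6), Senp8 (14.7), Uspl1 (14.3), Senp2 (13.8), Desi1 (12.3), Senp3 (10.7), Senp5 (7.49) and Senp7 (4.45). The libraries of neighbours overlapped from Senp8 down to Senp3 and were separate elsewhere in this order. In PIASy-WT the order was Senp6 (78.7), Desi2 (49.4), Senp8 (36.4), Senp1 (28.4), Desi1 (11.1), Senp3 (3.35), Senp5 (2.86), Uspl1 (2.83), Senp2 (2.37) and Senp7 (1.42). Here Senp8 overlapped with Senp1, and neighbours from Senp3 down overlapped, so a lower set of 5 genes stood apart from an upper set of 5. In PIASy-Mut only Senp6 was separate from its neighbour. Senp6 stood above 93.2% of the genes tested in non-injection and 95.7% in PIASy-WT, and Uspl1 went from above 76.9% to above 45.6%.

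The order depends on gene length. The table's length, which merges the exons of all transcripts, was 1.00 to 3.12 times that of the transcript with the longest coding sequence, with Senp2 at the low and Senp1 at the high end. With the latter length, chosen after seeing the data, Senp6 was still the highest in each group (126 FPKM in non-injection and 158 in PIASy-WT), but the lowest was Senp5 in non-injection (9.84), Senp2 in PIASy-Mut (9.42) and Senp2 in PIASy-WT (2.37). Ratios of mean FPKM between groups within a gene do not change with this length, but class sums do. At this length Senp1 had a mean FPKM of 64.1 in non-injection and 88.7 in PIASy-WT, and Senp2 had 13.8 and 2.37. The sign of the nuclear class sum therefore depends on the length used.

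Short motifs in the promoters were read as a description of what the genes share. Windows of 300 bases around a start site were found in the RefSeq table on GRCm38.p6 for 9 of the 10 genes, all but Uspl1. Both strands were searched. The GC box GGGCGG was in the windows of 5 of the 9 genes (Senp3, Senp2, Senp6, Senp8 and Desi1), where 38.2% of 27025 genes have it, and CCAAT in 3 (Senp3, Desi1 and Desi2), where 41.1% do. The E-box CACGTG was in Senp8 alone (8.09% of genes), the cyclic AMP element TGACGTCA in Senp2 alone (2.03%), and TATAAA in none of the 9 (15.7%). Neither the genes below nor those above the other libraries in PIASy-WT all shared a motif. CG dinucleotides did not sort by side in PIASy-WT. Of genes above the other libraries, Senp6 had 35 and Senp8 had 25. Of genes below them, Senp5 had 10, the windows of Senp7 had 1, 17 and 19, and those of Senp3 had 35 and 22. Senp2 and Desi2, on opposite sides of the other libraries in PIASy-WT, are shown for their contrast in base composition. They have 25 and 10 CG dinucleotides, where the median window has 7. Their windows, both on the plus strand and with matched motifs in capitals, lie at chr16:22009234-22009533 and chr1:178187167-178187466.
Senp2: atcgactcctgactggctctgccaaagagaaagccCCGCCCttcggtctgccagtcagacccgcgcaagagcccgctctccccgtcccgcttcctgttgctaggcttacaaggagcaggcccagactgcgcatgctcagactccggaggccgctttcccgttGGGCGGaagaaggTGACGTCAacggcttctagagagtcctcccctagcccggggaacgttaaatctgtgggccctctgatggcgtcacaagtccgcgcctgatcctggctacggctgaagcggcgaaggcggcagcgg
Desi2: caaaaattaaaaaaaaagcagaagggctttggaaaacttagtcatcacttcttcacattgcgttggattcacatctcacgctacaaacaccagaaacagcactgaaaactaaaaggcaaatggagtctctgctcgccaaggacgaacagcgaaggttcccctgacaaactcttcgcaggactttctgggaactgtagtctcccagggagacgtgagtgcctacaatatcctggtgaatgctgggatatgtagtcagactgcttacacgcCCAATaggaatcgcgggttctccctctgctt

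The proteases were then set beside the genes they work with, in 5 lists, none of which, with all 6 libraries, had a gene called higher in any comparison or a gene called in PIASy-Mut against non-injection. Pias4, the injected gene, was left out of the lists. Among 17 genes of SUMO conjugation, 2 were called lower against non-injection and 2 against PIASy-Mut. The median log2 fold changes of this list were -0.76 and -0.58, where those of all genes tested were 0.01 and -0.03, and the shares of all genes called lower are the 5.76% and 6.01% given above. Ranbp2, a SUMO ligase of the nuclear pore, had FPKM values of 20.6 and 17.9 without injection, 21.6 and 12.5 with PIASy-Mut and 3.99 and 3.63 with PIASy-WT, and it fell in both comparisons (log2 fold changes -2.07 and -1.86, adjusted P = 0.0328 and 0.0373). Rangap1, the SUMO-modified partner of Ranbp2, fell against PIASy-Mut (-1.90, adjusted P = 0.0487) and had -1.76 (adjusted P = 0.0561) against non-injection. Topors, a ligase for both ubiquitin and SUMO, fell against non-injection (-1.48, adjusted P = 0.0317) and had -0.95 (adjusted P = 0.0655) against PIASy-Mut.

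For the nucleolar pair, 16 partner genes were read, of which 3 were called lower against non-injection and 4 against PIASy-Mut. The medians were -1.30 and -1.45. Nhp2, a subunit of the complex that makes pseudouridine in ribosomal RNA, had FPKM values of 407 and 434 without injection, 480 and 347 with PIASy-Mut and 81.0 and 52.4 with PIASy-WT (log2 fold changes -2.67 and -2.63, adjusted P = 0.0224 and 0.0223). Dkc1, the catalytic subunit of that complex, fell by less (-1.28 and -1.43, adjusted P = 0.0479 and 0.0385). Gnl3, which encodes nucleostemin, also fell in both comparisons (-1.97 and -2.05, adjusted P = 0.0325 and 0.0292). Nop56, a core protein of small nucleolar particles, fell against PIASy-Mut (-1.82, adjusted P = 0.0409) and had -1.42 (adjusted P = 0.0666) against non-injection.

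For Uspl1, 12 Cajal body and small nuclear RNA genes were in the table and 11 were tested, with 3 called lower against non-injection and 4 against PIASy-Mut. The medians were -0.70 and -0.68. Coil, which encodes the Cajal body scaffold coilin, had FPKM values of 12.1 and 20.1 without injection, 25.9 and 13.7 with PIASy-Mut and 1.71 and 1.24 with PIASy-WT (log2 fold changes -2.75 and -3.01, adjusted P = 0.0311 and 0.0261). Nolc1, a coilin-binding nucleolar protein, fell in both (-2.59 and -2.91, adjusted P = 0.0224 and 0.0219). Wrap53, which brings RNAs to Cajal bodies, fell in both comparisons too (-1.89 and -1.97, adjusted P = 0.0406 and 0.0366). Gemin2, of the complex that assembles small nuclear particles, fell against PIASy-Mut (-1.38, adjusted P = 0.0459) and had -0.73 (adjusted P = 0.159) against non-injection.

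For Senp6 and Senp7, 19 genes of centromeres, cohesin and heterochromatin were in the table and 17 were tested, with 3 called lower in each comparison with PIASy-WT. The medians were -0.82 and -0.81. Cenpa, the centromeric histone, had FPKM values of 72.3 and 77.6 without injection, 102 and 60.5 with PIASy-Mut and 15.6 and 15.9 with PIASy-WT (log2 fold changes -2.18 and -2.25, adjusted P = 0.0285 and 0.0240). Cenpt, which joins centromere and kinetochore, fell in both comparisons (-2.88 and -2.60, adjusted P = 0.0251 and 0.0264). Mis18a, which licenses new Cenpa, fell against non-injection (-2.11, adjusted P = 0.0450) and had -1.75 (adjusted P = 0.0645) against PIASy-Mut. Trim28, a corepressor at heterochromatin, fell against PIASy-Mut (-1.55, adjusted P = 0.0491) and had -1.10 (adjusted P = 0.0975) against non-injection.

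For Senp8, 21 genes of NEDD8 conjugation were read, with 3 called lower against non-injection and 4 against PIASy-Mut. The medians were -0.52 and -0.17, while Senp8 itself had positive fold changes. Cul3, a cullin that NEDD8 activates, had FPKM values of 238 and 205 without injection, 295 and 178 with PIASy-Mut and 32.8 and 24.3 with PIASy-WT (log2 fold changes -2.93 and -2.98, adjusted P = 0.0224 and 0.0219). Rnf7, a RING subunit of cullin ligases, fell in both comparisons (-1.95 and -2.18, adjusted P = 0.0412 and 0.0330). Nedd8 itself fell in both as well (-1.35 and -1.32, adjusted P = 0.0335 and 0.0342). Nub1, which promotes loss of NEDD8, fell against PIASy-Mut (-2.44, adjusted P = 0.0434) and had -1.74 (adjusted P = 0.0846) against non-injection.

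The calls in these lists also turned on single libraries, which was examined after seeing the data. Against PIASy-Mut without PIASy-Mut replicate 2, the genes called were 7 lower and 2 higher of SUMO conjugation, 10 lower of the nucleolar partners, 4 lower of the Cajal body genes, 7 lower and 1 higher of the centromere, cohesin and heterochromatin genes and 6 lower and 3 higher of NEDD8 conjugation, in the fit that called 19.9% of all genes. Without PIASy-Mut replicate 1 no gene of the 5 lists was called against PIASy-Mut, where 0% of all genes were. Against non-injection without PIASy-Mut replicate 1, the calls were 7 lower and 2 higher of SUMO conjugation, 10 lower of the nucleolar partners, 3 lower of the Cajal body genes, 7 lower and 1 higher of the centromere, cohesin and heterochromatin genes and 4 lower and 2 higher of NEDD8 conjugation, where 18% of all genes were called. Leaving out replicate 2 instead gave 6 lower for SUMO conjugation and the same counts for the rest, with 17.8% of all genes called. Without any 1 library of the other 2 groups, no gene of these lists was called in either comparison, where 0 or 1 of all genes were.

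The list medians moved as well. Against non-injection, the NEDD8 median of -0.52 became -0.26 without non-injection replicate 2, -0.22 without PIASy-Mut replicate 1 and -0.22 without PIASy-WT replicate 2. Its median of -0.17 against PIASy-Mut became 0.27 and -0.39 without PIASy-Mut replicates 1 and 2, 0.03 without PIASy-WT replicate 1 and -0.04 without non-injection replicate 2. The Cajal body median against PIASy-Mut became -1.36 without PIASy-WT replicate 1 and -0.41 without replicate 2, and against non-injection -0.43 without PIASy-WT replicate 2. For SUMO conjugation the median against PIASy-Mut became -0.29 and -0.93 without PIASy-Mut replicates 1 and 2, and for the centromere, cohesin and heterochromatin genes -0.48 without replicate 1. The nucleolar list moved by less than 1.5 times in both comparisons.

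The genes whose pattern over the 6 libraries was most like that of 2 proteases were found among 6685 genes with at least 20 fragments per library on average. Points of 1 group and depth are shared in these correlations, which describe the pattern only. For Senp6, the most abundant, Pearson's r of log2(FPKM + 1) was 0.992 with Hecw1, 0.991 with Sytl4 and 0.989 with Ttc33, and 77 genes reached 0.95. Sytl4 had FPKM values of 14.2 and 14.3 without injection, 5.29 and 11.9 with PIASy-Mut and 24.4 and 32.6 with PIASy-WT. For Senp2, with the largest range between group means, r was 0.994 with each of Ppp2r5e, Nfatc2ip and Taf7, and 271 genes reached 0.95. Taf7 had FPKM values of 79.3 and 69.9 without injection, 85.1 and 39.6 with PIASy-Mut and 19.7 and 25.8 with PIASy-WT, so that PIASy-Mut replicate 2 stood between the groups as it did for Senp2.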

How the data were processed

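The authors trimmed reads with Trim Galore, aligned them to mm10 with STAR, ran featureCounts on reads that mapped once, and deposited FPKM for 53023 genes; the annotation release, counting strand and tool versions are not given in the sources used here. Spike-in RNA was added, and the table has 0 spike-in entries. FPKM times gene length, divided by the value of 1 fragment, was whole (within 0.01) for 100% of values, which gave each library's depth.

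Groups came from the labels. limma 3.58.1 (R 4.3.3; lmFit, eBayes with trend, 3 residual and 3.12 prior degrees of freedom) was run on log2(FPKM + 1) of all 6 libraries for 16100 genes that reached an FPKM of 1 in 2 or more libraries, with Benjamini-Hochberg adjustment. Fold changes are on this scale, which understates low genes. The authors used DESeq2 on counts; the deposited unit is FPKM. Fits were run on simulated data with changes larger than those of the proteases. The simulation does not show how well changes of their size are found. The number of fragments per gene limits the precision.

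The 10 genes and the lists were chosen with earlier results of these data known. All 10 genes are named, with Pias4, up to 4 called genes per list by mean fold size, and the 3 genes most like the most abundant and the most variable protease. The Cajal body list had 13 names, of which Tcab1 is an alias of Wrap53. Replicate numbers were checked for pairing (correlation of deviations 0.00368, 0.0851 and 0.0637, all under 0.1). With 2 libraries per group this check cannot decide whether the numbers pair libraries. No label states a pairing, and the reported fit uses none. Descriptions used pandas 2.3.3 in Python 3.11.15, and figures matplotlib 3.10.9. One sequence window is not reported here.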

Additional observations from a re-analysis of the deposited data

How the results depend on the processing

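With 2 libraries per group, calls near the threshold changed with most settings, while the directions of single genes in the PIASy-WT comparisons were kept except for Desi1. The nuclear class sum also turned, to 0.12 with quantile normalization and 0.05 without PIASy-WT replicate 1 against non-injection, and to 0.07 with median-of-ratios scaling, 0.32 with quantile normalization, 0.03 without PIASy-Mut replicate 1 and 0.17 without PIASy-WT replicate 1 against PIASy-Mut. Against non-injection, the number of proteases called was 0 without a filter on low values and 0 with eBayes without trend, 2 at an FPKM of at least 5, 3 with only the 4 libraries compared and 5 by voom on recovered fragments (Senp3, Senp2, Senp7 and Uspl1 lower, Desi2 higher). Against PIASy-Mut it was 0 without a filter, 0 with quantile normalization, 0 with only the 4 libraries, 0 with eBayes without trend and 3 by voom (Senp5, Senp7 and Uspl1). Of all genes, 1094 were called against non-injection in the reported fit, and 170 of 27826, 315, 1773 of 8282, 2293 and 2717 in those 5 fits in the order no filter, no trend, FPKM of 5, 4 libraries and voom. Against PIASy-Mut 1100 were called, and 254 of 27826, 614, 0, 554 and 2418 in the order no filter, quantile, 4 libraries, no trend and voom. Leaving out each library gave 0 to 3 proteases and 0 to 5. For the related genes it gave, against non-injection and PIASy-Mut, 0 to 9 and 0 to 9 of SUMO conjugation, 0 to 10 and 0 to 10 of the nucleolar partners, 0 to 3 and 0 to 4 of the Cajal body genes, 0 to 8 and 0 to 8 of the centromere, cohesin and heterochromatin genes and 0 to 6 and 0 to 9 of NEDD8 conjugation, where 0% to 18% and 0% to 19.9% of all genes were called. The adjusted P of Uspl1 over 16 alternatives was 0.0021 to 0.198 against non-injection (10 passing) and 0.00277 to 0.171 against PIASy-Mut (7 passing). The count in PIASy-Mut against non-injection was 0 under each alternative. With a block for replicate number, the proteases called were 1, 1 and 0, and 808, 866 and 1 of all genes.

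Quantile normalization moved the median of all genes to 0.12 against non-injection and 0.11 against PIASy-Mut. The differences in mean log2 class sum then became 0.12 (nuclear), 0.53 (chain-editing) and 0.83 (other) against non-injection, and 0.32, 0.81 and 0.83 against PIASy-Mut; relative to that shift Desi1, at 0.17 in both, lay near the median. In PIASy-Mut against non-injection it gave -0.0064 for Senp7, -0.0039 for Senp8 and -0.0011 for Desi1. Leaving out each library gave -0.54 to 0.41 for Desi1 against non-injection and -0.28 to -0.04 against PIASy-Mut, and -0.39 to 0.05 and -0.27 to 0.17 for the nuclear class. In PIASy-Mut against non-injection it gave -0.74 to 0.38 for Senp3, -0.011 to 0.74 for Senp5, -0.080 to 0.28 for Senp1, -1.34 to 0.020 for Senp2, -0.54 to 0.70 for Senp7, -0.64 to 0.76 for Senp8, -0.39 to 0.26 for Uspl1, -0.39 to 0.57 for Desi1 and -0.088 to 0.30 for Desi2. The causes were not tested. A pseudocount of 5 moved the fold changes of 5 genes by over 1.5 times, to -0.91 and -0.80 for Senp3, -0.66 and -0.92 for Senp5, -1.35 and -0.90 for Senp2, -0.56 and -0.64 for Senp7 and -1.30 and -1.26 for Uspl1 against non-injection and PIASy-Mut. The chain-editing class, at 0.25 against non-injection, was 0.40 without PIASy-WT replicate 1 and 0.10 without replicate 2. Chosen after seeing the data, the same 5 genes lay below all other libraries under both scalings, and 4 lay above them, with Senp1 the addition. The shares of all genes tested were counted only without scaling, at 24.4% below and 19.9% above, so these counts have no matching background. Depth limits Senp2, Senp3 and Senp5 most, at 11 to 17 fragments per PIASy-WT library, followed by Senp7 (14 and 33) and Uspl1 (41 and 31).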
